A study of Mus musculus with 15 samples.

Results

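Biliary lineage genes were followed on 15 arrays of mouse liver tumors, as a check of the tumors labelled ICC, which usually stands for intrahepatic cholangiocarcinoma. The genes were Sox9, Onecut1, Onecut2, Epcam, Spp1, Prom1, Cftr, Bicc1 and Pkhd1. They were chosen by name, and every non-control probe with one of these names was taken, which gave 11 probes of 55681 on the array. Prom1 and Cftr had 2 probes each, and the brighter of them over all arrays represented the gene. Each array carried the total RNA of a whole tumor, labelled with a single dye. The groups, of 5 arrays each, were hepatocellular carcinoma (HCC) from p53f/f mice, HCC from p53LKO mice and ICC, also from p53LKO mice. In p53f/f mice the Trp53 gene is flanked by recombination sites but intact, and p53LKO mice lack it in the liver. The driver of the deletion is not given in the sources used here. All mice received carbon tetrachloride (CCl4), a hepatotoxin that leads to fibrosis, at 0.5 µl per g body weight in olive oil for 16 weeks from the age of 6 weeks. The study gives male mice for its transcriptome of HCC and does not describe the ICC arrays. The sex of mouse 3977, which gave an ICC but no HCC array, is therefore not stated there. The study took mice at several ages and found tumors in p53f/f mice later, and the age at which the hybridised tumors were taken is not given in the sources used here. Age may therefore differ with genotype, and the 2 cannot be told apart. Among the p53f/f HCC, tumors T1 and T2 of mouse 3717 came from 1 animal, so 4 mice stand behind 5 arrays. Of the p53LKO mice, 3731, 3733, 3976 and 5283 each gave an HCC and an ICC.

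Intrahepatic bile ducts are lined by cholangiocytes, which arise in the embryo from the same hepatoblasts as hepatocytes. SOX9 is among the first transcription factors to mark the biliary fate, and ONECUT1 and ONECUT2 help to set the border between the hepatocyte and the biliary program. EPCAM is an epithelial adhesion protein of ducts, SPP1 (osteopontin) a secreted glycoprotein and PROM1 (CD133) a membrane protein of progenitor and duct cells. CFTR is the chloride channel of the duct surface, and BICC1 and PKHD1 are tied to the primary cilium and to cystic disease of kidney and liver. In damaged liver, hepatocytes and progenitor cells can also switch on some of these genes.

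Levels are given as log2 of the processed signal relative to the 75th percentile of the same array, so that 0 is the level of the 75th percentile. Whether a probe was well above background was taken from the scanner software, and testing required this for 3 or more of the 5 arrays in either group. A difference was called at an adjusted p under 0.05 from limma and a fold change over 2. The share of probes well above background was 55.1% to 70.1% on p53f/f HCC arrays, 37.0% to 62.1% on p53LKO HCC arrays and 42.5% to 47.0% on ICC arrays. The arrays lay in an upper or a lower row of 2 slides. All p53f/f HCC lay in the upper row and all ICC in the lower row, and the p53LKO HCC were split 3 to 2. The share well above background was 55.1% to 70.1% in the upper row and 37.0% to 47.0% in the lower. Between p53f/f HCC and ICC, the part of the row in it cannot be told apart from that of the group. The 3 comparisons share arrays and are not independent of each other. In whole tissue, fewer cells of a type cannot be told apart from less RNA per cell.

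The probes of Epcam and Spp1, the members that separated ICC from HCC, are shown here as the sequence that was measured. Both were read from the array files, 5′ to 3′.
Epcam probe: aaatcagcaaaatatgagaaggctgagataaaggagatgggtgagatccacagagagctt
Spp1 probe: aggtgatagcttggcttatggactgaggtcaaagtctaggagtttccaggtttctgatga
The array files gave the Spp1 probe a place on chromosome 5 of mm9, from 104868502 to 104868561 on the plus strand, and left the Epcam probe unmapped. Promoters from RefSeq (GRCm38.p6) were listed for 6 of the 9 genes. They are shown as 250 bases before the start for the 2 genes that rose in ICC and for Prom1, the first of its listed starts, which fell. Capitals mark TGGGAA on either strand, the core of the site bound by RBPJ of the Notch pathway.
Epcam promoter, chr17:87635729-87635978, plus strand: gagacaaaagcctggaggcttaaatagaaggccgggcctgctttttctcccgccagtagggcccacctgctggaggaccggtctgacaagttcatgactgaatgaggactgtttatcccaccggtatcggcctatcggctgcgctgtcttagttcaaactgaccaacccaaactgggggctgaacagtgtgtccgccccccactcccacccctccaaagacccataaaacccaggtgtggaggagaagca
Spp1 promoter, chr5:104434861-104435110, plus strand: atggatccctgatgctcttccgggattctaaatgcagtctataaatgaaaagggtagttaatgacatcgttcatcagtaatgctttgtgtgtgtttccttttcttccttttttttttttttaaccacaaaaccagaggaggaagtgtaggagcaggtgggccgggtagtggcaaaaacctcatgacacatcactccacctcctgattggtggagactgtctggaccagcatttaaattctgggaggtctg
Prom1 promoter, chr5:44101737-44101986, minus strand: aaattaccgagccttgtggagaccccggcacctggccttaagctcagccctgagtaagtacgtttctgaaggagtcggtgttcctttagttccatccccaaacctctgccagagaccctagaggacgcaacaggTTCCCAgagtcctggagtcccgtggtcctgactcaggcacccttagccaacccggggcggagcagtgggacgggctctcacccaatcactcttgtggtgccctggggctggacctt
The RBPJ letters stood at 116 to 111 bases before the start of Prom1, on the opposite strand. They were in no promoter of Epcam, Spp1, Onecut1, Cftr or Pkhd1. Of 32851 promoters of this length, 21.6% hold them. A further 3 motifs were searched on both strands. ATCAAT for ONECUT factors (6.72%), TGTTTAC for FOXA factors (3.17%) and GGAATG for TEAD factors (12.6%) had no match in these 6 genes. Sox9, Onecut2 and Bicc1 have no promoter in the table.

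**Figure D1:**
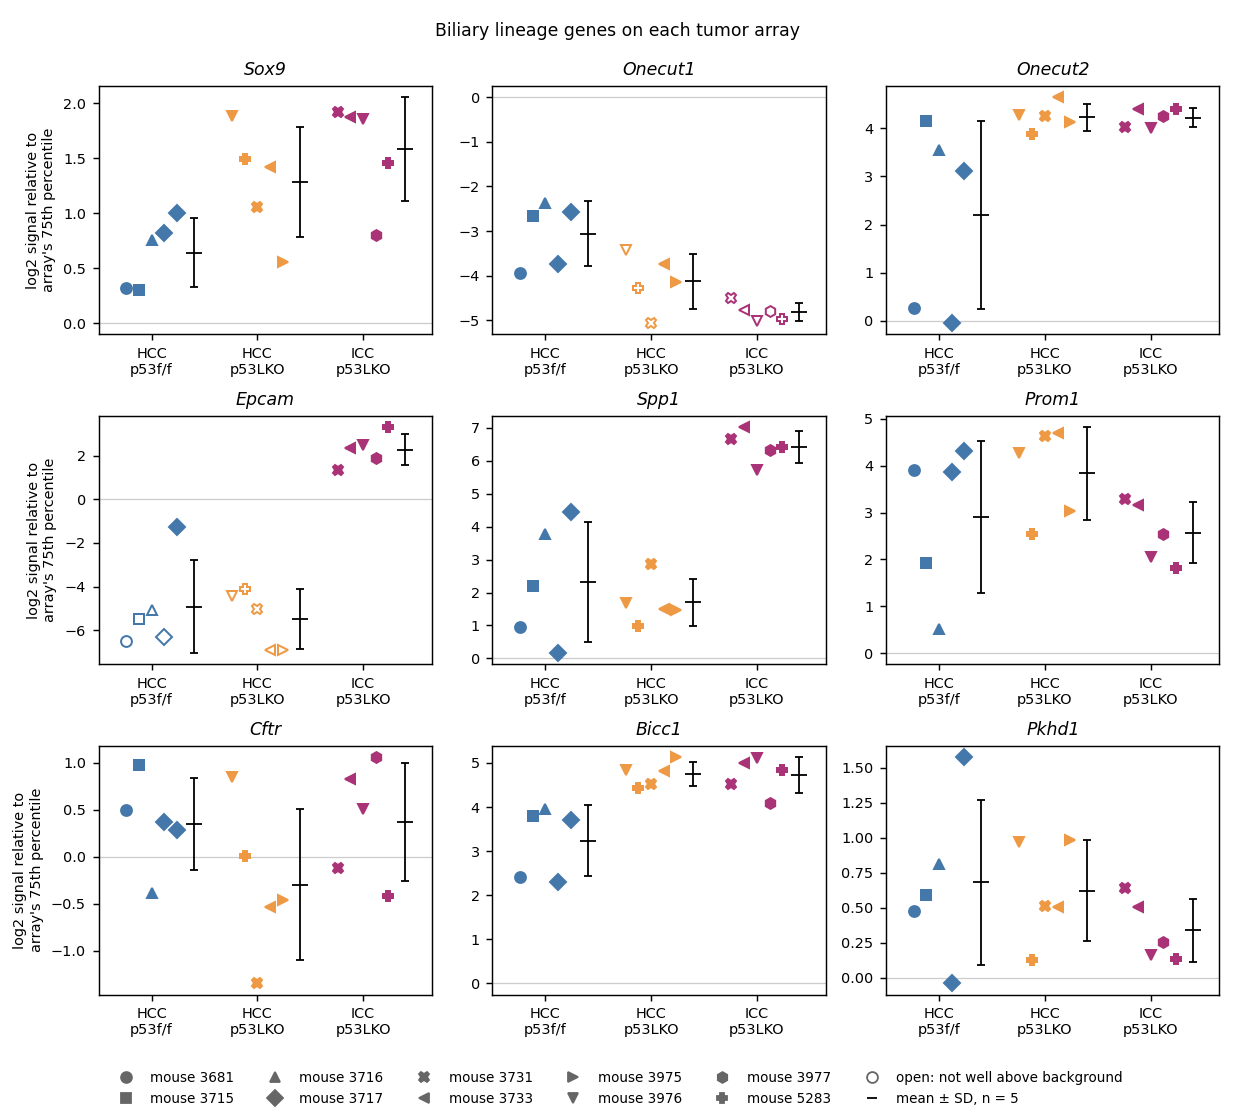
Level of each gene on each of the 15 arrays (y axis: log2 signal, with the 75th percentile of the array at 0; x axis: tumor group). Marker shapes stand for mice, open markers for arrays on which the probe was not well above background, and bars for mean ± SD (n = 5). ICC lies above all HCC for Epcam and Spp1 alone, and the p53f/f HCC of mouse 3681 and tumor T1 of mouse 3717 lie low for Onecut2 and Bicc1.

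The array files placed the main probes of the other genes on mm9 as follows, with no exon or UTR annotation of that build used here. The Sox9 probe lay at chr11:112648809-112648868, the Onecut1 probe at chr9:74710921-74710980 and the Cftr probe at chr6:18270974-18271033, all on the plus strand. The Prom1 probe lay at chr5:44384861-44384920, the Bicc1 probe at chr10:70387850-70387909 and the Pkhd1 probe at chr1:20047861-20047920, all on the minus strand.

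Between ICC and HCC of p53LKO mice, 8 of the 9 genes were bright enough to be tested. Epcam and Spp1 were higher in ICC and Prom1 was lower, and the remaining tested genes did not pass. Of all 32666 probes tested in this comparison, 12.9% were called higher and 13.4% lower in ICC. The groups did not overlap for Epcam and Spp1, and for 28.6% of all tested probes. The median log2 fold change of the 8 genes was 0.14, against -0.18 for all genes with 1 probe each.

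Epcam was at 1.34 in the ICC of mouse 3731, 2.34 in 3733, 2.50 in 3976, 1.90 in 3977 and 3.31 in 5283. In the p53LKO HCC it was at -5.03 in 3731, -6.93 in 3733, -6.93 in 3975, -4.41 in 3976 and -4.10 in 5283. It was well above background on all ICC arrays and on 0 of 5 of these HCC arrays, so HCC has only a bound. The level in ICC, 2.28 ± 0.73 (SD, n = 5), was at least 94.0-fold higher than the background level of the HCC arrays (limma adjusted p = 1.76e-05). A 2-sided exact permutation test gave p = 0.00794, the smallest that 5 against 5 arrays allow. Epcam passed the filter through ICC alone, so both p values set its signal there against background readings. The fitted differences, whose size is not exact because HCC has only a bound, were 8.81 on slide 2 and 6.53 within the lower row, and both passed. Slide 1 holds 1 ICC array, which the fit assumes to vary like the HCC arrays, and gave 5.60. With the normexp background correction in place of the scanner's, which raises dim signals, the difference was 4.55 and passed, so the bound holds for the processed signal alone.

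Spp1 was measured on every array. The ICC levels were 6.66 in mouse 3731, 7.02 in 3733, 5.71 in 3976, 6.34 in 3977 and 6.41 in 5283. The p53LKO HCC levels were 2.88 in 3731, 1.50 in 3733, 1.47 in 3975, 1.68 in 3976 and 0.98 in 5283. The lowest ICC thus lay well above the highest HCC. The mean was 6.43 ± 0.48 in ICC and 1.70 ± 0.71 in HCC (SD, n = 5 each). The groups thus differed by 4.73 on the log2 scale (limma adjusted p = 1.28e-05, SE 0.35), or 26.5-fold. The exact permutation test gave p = 0.00794 here too. Spp1 passed on slide 2 at 4.42 and within the lower row at 5.10. On slide 1, with its 1 ICC array, the fitted difference was 5.33.

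Prom1 went the other way. Its main probe was at 3.30 in the ICC of mouse 3731, 3.16 in 3733, 2.05 in 3976, 2.55 in 3977 and 1.81 in 5283. In p53LKO HCC it was at 4.64 in 3731, 4.69 in 3733, 3.03 in 3975, 4.27 in 3976 and 2.54 in 5283. The ranges overlapped, with 2 ICC below every HCC. The log2 fold change was -1.26 (limma adjusted p = 0.0474, SE 0.47), with an exact permutation p of 0.0714, 2-sided. The dimmer Prom1 probe fell by 1.53 on the log2 scale (limma adjusted p = 0.0351, exact permutation p = 0.0397). The main probe no longer passed with the row as a block, at -0.83 (limma adjusted p = 0.331), or with the slide as a block, at -1.27 (limma adjusted p = 0.0650). It passed on slide 2, at -1.73, but was at -0.11 on slide 1, which holds 1 ICC. It also missed the threshold without the HCC of mouse 3731, 3733 or 3976, and without the ICC of mouse 3733, 3976, 3977 or 5283, where it lay between -1.41 and -1.05.

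The transcription factors did not separate ICC from HCC within p53LKO mice. Sox9, read by 10 spots with an SD between spots of 0.07 to 0.15, ranged from 0.81 to 1.92 in ICC and from 0.56 to 1.89 in p53LKO HCC. Its log2 fold change was 0.30, with a 95% interval from -0.34 to 0.94 (limma adjusted p = 0.421). Onecut2 was bright and even in both, from 4.01 to 4.41 in ICC and from 3.88 to 4.65 in HCC. The difference of -0.02 had a narrow interval, from -0.41 to 0.38 (limma adjusted p = 0.953). Onecut1 was well above background on 0 of 5 ICC and 2 of 5 HCC arrays and was not tested. A further probe, annotated to an Onecut1 transcript under another name, was well above background on 0 of 15 arrays.

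The channel and the cilium genes also passed no test in this comparison. Cftr ranged from -0.42 to 1.06 in ICC and from -1.35 to 0.84 in HCC of p53LKO mice, a difference of 0.67 with an interval from -0.23 to 1.57 (limma adjusted p = 0.200). On slide 2 alone it was higher in ICC by 1.28 (limma adjusted p = 0.0433), and on slide 1 alone, which holds 1 ICC, it gave -0.54. The dimmer Cftr probe was well above background on 0 of 15 arrays. Bicc1 lay between 4.10 and 5.11 in ICC and between 4.44 and 5.13 in HCC, with a log2 fold change of -0.03 and an interval from -0.53 to 0.46 (limma adjusted p = 0.918). Pkhd1, at 0.14 to 0.64 and 0.13 to 0.98, gave -0.28 with an interval from -0.73 to 0.16 (limma adjusted p = 0.278). For these genes the arrays did not detect a difference, and the intervals show which sizes they leave.

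Where an HCC and an ICC came from the same p53LKO mouse, they were set against each other. Epcam was higher in the ICC of all 4 mice, by 6.37 to 9.27 on the log2 scale, and its HCC level was below the background limit each time. Spp1 was higher by 3.78 in mouse 3731, 4.03 in 3976, 5.43 in 5283 and 5.52 in 3733. Prom1 was lower in all 4, with differences from -0.73 in mouse 5283 to -2.22 in 3976. Bicc1 was higher in all 4 by small amounts, from 0.01 to 0.41. Onecut2 was lower in the ICC of 3 mice and higher in that of 5283. Sox9, Cftr and Pkhd1 were higher in the ICC of 2 mice and lower in that of the other two. With the mouse as a block, Epcam, Spp1 and Prom1 were called in the same direction, at 7.49, 4.69 and -1.46.

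**Figure D2:**
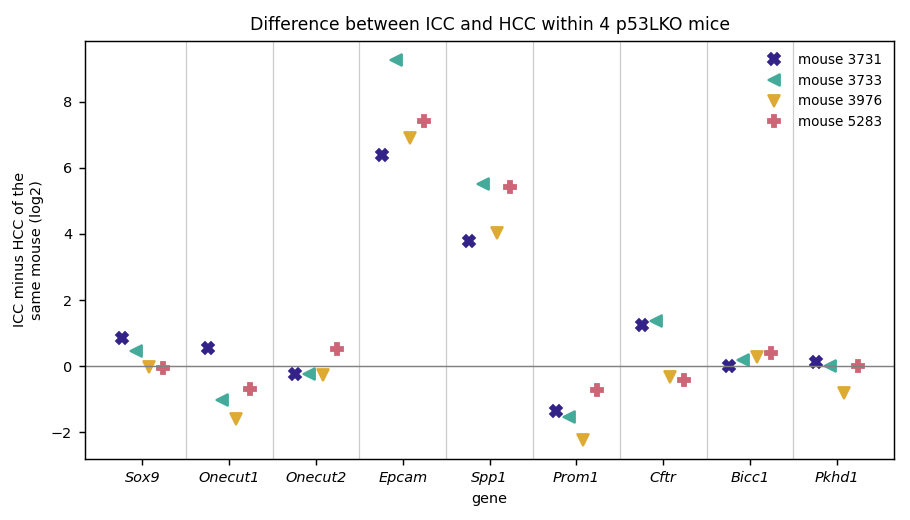
ICC minus HCC of the same p53LKO mouse (y axis: difference of log2 levels) for each gene (x axis), with a marker per mouse for 4 mice. Epcam and Spp1 lie above 0 and Prom1 below 0 in every mouse, and HCC levels of Epcam and most levels of Onecut1 were not well above background.

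Between HCC of p53LKO and p53f/f mice, 8 genes were tested and Bicc1 alone was called, as higher in p53LKO HCC. The count of lower genes was 0 with limma and with the methods' t-test after adjustment. At an unadjusted p under 0.05 from limma and with no limit on the fold, 3 genes were higher and 1, Onecut1, was lower. Over all genes with 1 probe each, 3641 of 17260 were higher and 3350 lower at that threshold. The median log2 fold change of the 8 genes was 0.29, against 0.08 for all genes with 1 probe each. Of 36086 probes tested, 3.64% were called higher and 16.0% lower in p53LKO HCC, and 22.5% had groups without overlap, as Bicc1 did. Its level was 4.52 in the p53LKO HCC of mouse 3731, 4.82 in 3733, 5.13 in 3975, 4.84 in 3976 and 4.44 in 5283. In p53f/f HCC it was 2.41 in mouse 3681, 3.80 in 3715, 3.96 in 3716, 2.31 in 3717 T1 and 3.70 in 3717 T2. The p53f/f tumors thus fell into a lower pair and 3 higher ones, all below the p53LKO tumors. The groups differed by 1.51 on the log2 scale (limma adjusted p = 0.00739, SE 0.35), or 2.86-fold, and the exact permutation test gave p = 0.00794. Within the upper row it was 1.59 (limma adjusted p = 0.0250). On slide 1 and slide 2 alone it was 1.52 and 1.13 and did not pass, with 4 against 2 and 1 against 3 arrays. A probe annotated to a further Bicc1 transcript under another name gave 0.10 to 1.81 in p53f/f HCC, 2.24 to 2.91 in p53LKO HCC and 2.08 to 3.15 in ICC.

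Onecut2 showed the same pair of low p53f/f tumors. It was at 0.26 in mouse 3681 and -0.05 in 3717 T1, but at 4.16 in 3715, 3.54 in 3716 and 3.11 in 3717 T2. All 10 tumors of p53LKO mice lay between 3.88 and 4.65. The log2 fold change between the HCC groups was 2.03 (limma adjusted p = 0.0623, SE 0.76), with an exact permutation p of 0.0238, so it missed the threshold. Without the p53f/f HCC of mouse 3715 or 3716 it passed, at 2.52 and 2.37, and without any other single array it did not, with a lowest value of 1.47. The SD of Onecut2 was 1.96 in p53f/f HCC, 0.28 in p53LKO HCC and 0.20 in ICC (n = 5 each).

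Sox9 was at 0.32 in the p53f/f HCC of mouse 3681, 0.30 in 3715, 0.76 in 3716, 0.82 in 3717 T1 and 1.00 in 3717 T2. Of the p53LKO HCC, 4 lay above all of these and the tumor of mouse 3975, at 0.56, did not. The difference of 0.65 (limma adjusted p = 0.0764, SE 0.26) did not pass. With the arrays shifted to the spike-in probes it was 1.29 and passed, a shift that moved the median of all tested probes by 0.65. Onecut1, a dim probe, was at -3.95 to -2.37 in p53f/f HCC and at -5.06 to -3.41 in p53LKO HCC, where it was well above background on 2 of 5 arrays, both in the upper row. Its fitted difference of -1.07, whose size is not exact for so dim a probe, had an adjusted p of 0.0534 from limma. Leaving out the p53f/f HCC of mouse 3681 or 3717 T1, or the p53LKO HCC of mouse 3976, it passed at -1.29, -1.24 and -1.25. Onecut1 entered the test through p53f/f HCC alone, so these fits set its signal there mostly against background readings.

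The remaining genes gave wide intervals. Spp1 differed by -0.61, with an interval from -2.27 to 1.05 (limma adjusted p = 0.563), and Prom1 by 0.93, from -0.69 to 2.54 (limma adjusted p = 0.355). Prom1 varied widely among p53f/f tumors, with 0.52 in mouse 3716 and 1.93 in 3715 against 3.87 to 4.31 in the others. Cftr gave -0.65, from -1.49 to 0.19 (limma adjusted p = 0.212). Within the upper row alone Cftr fell by 1.13 on the log2 scale in p53LKO HCC (limma adjusted p = 0.0322). Pkhd1 gave -0.06, from -0.70 to 0.58 (limma adjusted p = 0.890). Epcam was well above background on 1 of these 10 HCC arrays and was not tested.

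**Figure D3:**
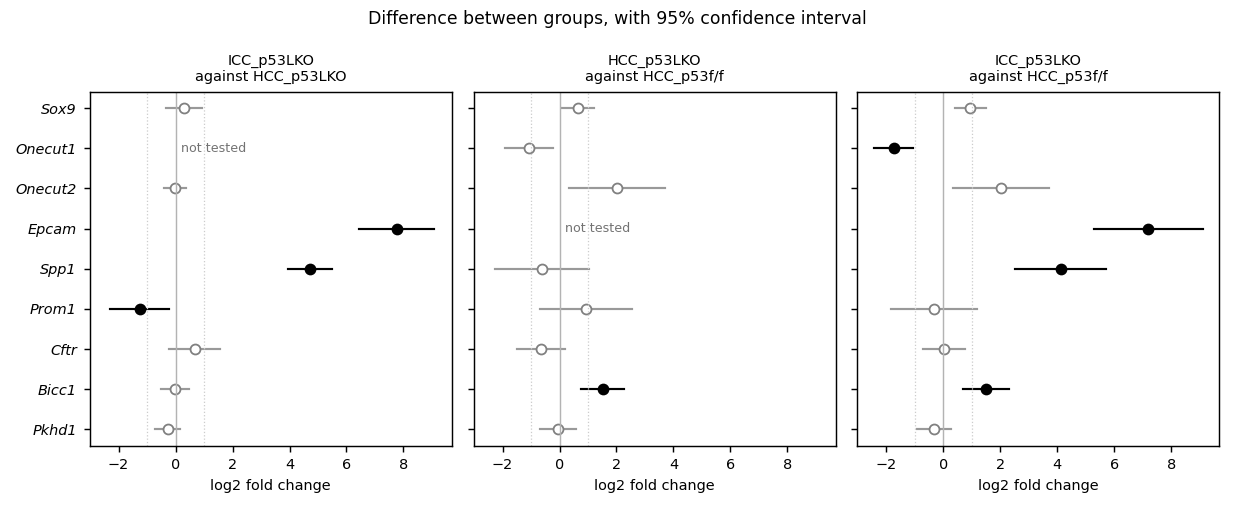
Log2 fold change (x axis) of each gene (y axis) with its 95% confidence interval from limma in the 3 comparisons, filled where it was called and with dotted lines at a fold change of 2. Bicc1 is filled in both comparisons with p53f/f HCC, and Epcam and Spp1 where ICC is compared. The values of Epcam against either HCC group and of Onecut1 against p53f/f HCC were fitted with a group mostly not well above background, so their size is not exact, and no direction is read for Onecut1 against ICC.

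ICC of p53LKO mice and HCC of p53f/f mice differ in tumor label, genotype and row, and perhaps in age, which cannot be told apart here. All 9 genes were tested, with a median log2 fold change of 0.95 against -0.17 for all genes with 1 probe each. Epcam, Spp1 and Bicc1 were higher in ICC and did not overlap with p53f/f HCC. Of 35702 probes tested, 7.43% were called higher and 12.0% lower, and 24.2% had groups without overlap. Epcam had a fitted difference of 7.20 (limma adjusted p = 0.000271), with 1 of 5 p53f/f arrays well above background, so that its size is not exact. Spp1 differed by 4.12 (limma adjusted p = 0.00222, SE 0.73) and Bicc1 by 1.48 (limma adjusted p = 0.0112, SE 0.37). With the slide as a block, Bicc1 was at 1.24 and did not pass (limma adjusted p = 0.107). The fit also called Onecut1, which passed the filter through p53f/f HCC alone, with 0 of 5 ICC arrays well above background. Its p53f/f signal lay below the bound that the ICC arrays set, so neither a direction nor a fold is read from it.

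Sox9 was higher in ICC than in p53f/f HCC by 0.95 (limma adjusted p = 0.0155, SE 0.25), which is under the 2-fold limit, with 4 of 5 ICC above all p53f/f HCC. Without the ICC of mouse 3977 it was 1.14 and without p53f/f tumor 3717 T2 it was 1.04, and both passed, as did 6 of 24 alternatives in all. Onecut2 gave 2.02 (limma adjusted p = 0.0619). Without the p53f/f HCC of mouse 3715 or 3716 it passed, at 2.51 and 2.35, as it did in 8 of 24 alternatives in all, and the lowest value without a single array was 1.45. Prom1, Cftr and Pkhd1 gave -0.34, 0.02 and -0.34, with adjusted p values of 0.722, 0.961 and 0.346 from limma.

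Among the p53f/f HCC, tumor T2 of mouse 3717 had high levels of several biliary genes. Its Epcam level was -1.27, against -6.50 to -5.05 in the other four, and the probe was well above background on this array only. Spp1 was at 4.46 there, against 0.97 in mouse 3681, 2.19 in 3715, 3.78 in 3716 and 0.16 in tumor T1 of the same mouse. The biliary keratins Krt19 and Krt7 were at 0.88 and -0.93, against -4.47 to -2.31 and -5.70 to -3.57 in the other p53f/f HCC. Both tumors of mouse 3717 had Alb, the albumin gene of hepatocytes, at 10.2 and 10.5. From T1 to T2 the differences were 5.05 for Epcam, 4.30 for Spp1, 3.16 for Onecut2, 1.61 for Pkhd1, 1.39 for Bicc1, 1.14 for Onecut1, 0.44 for Prom1, 0.19 for Sox9 and -0.08 for Cftr. Epcam was not well above background in T1, so the size of its difference is not exact. T2 lay on slide 2 and T1 on slide 1, and the part of the slide in these differences was not tested.

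The label of the ICC was also checked against defining markers outside the 9 genes. Krt19 was at 1.59 to 2.81 in ICC and at -4.64 to -1.24 in HCC of p53LKO mice, and differed by 4.67 (limma adjusted p = 0.000304, SE 0.62). Krt7, the gene of the keratin that the study stained as a cholangiocarcinoma marker, was well above background on 4 of 5 ICC and 1 of 5 p53LKO HCC arrays. Its ICC levels were -1.15 to -0.73 in 4 mice and -3.68 in mouse 5283, where it was not well above background. It passed the filter through ICC alone and was called higher there (limma adjusted p = 0.00884). That p sets the ICC signal mostly against background readings, and the groups overlapped through the ICC of mouse 5283. Sox9 did not separate the groups, as given above. Epcam, Krt19 and, on 4 arrays, Krt7 thus followed the ICC label, and Sox9 did not.

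Other markers of cholangiocytes moved both ways. Beside the lists that follow, 2101 of 16448 genes with 1 probe each were higher and 2520 lower in ICC than in HCC of p53LKO mice, with a median log2 fold change of -0.18. Between HCC of p53LKO and p53f/f mice, 5.30% of 17260 genes were higher and 9.98% lower, and between ICC and p53f/f HCC 11.0% of 17197 were higher and 11.9% lower. At an unadjusted p under 0.05 and with no limit on the fold, 3436 genes were higher and 5602 lower in ICC than in p53LKO HCC. Between the HCC groups, 3641 were higher and 3350 lower at that threshold. Of 30 cholangiocyte genes, 28 were tested between ICC and HCC of p53LKO mice, 7 were higher in ICC and 9 lower, with a median log2 fold change of 0.22. Among those higher were the matrix protease Mmp7 at 8.94 and the integrin chain Itgb4 at 4.84 (adjusted p = 1.77e-05 and 1.44e-05 from limma). Among those lower were the tight junction gene Cldn7 at -2.52 and the ileal-type bile acid transporter Slc10a2 at -2.09, which were named after their values were seen, as was the sodium-glucose transporter Slc5a1. Slc5a1 was well above background on 5 of 5 p53LKO HCC arrays, 0 of 5 ICC arrays and 2 of 5 p53f/f HCC arrays. It was at least 5.02-fold lower in ICC than in p53LKO HCC (limma adjusted p = 4.85e-06), and it was called higher in p53LKO than in p53f/f HCC (limma adjusted p = 0.00312), with a size that is not exact. Slc5a1 passed the filter through p53LKO HCC alone. Both p values thus set its signal there against readings that were all or mostly background. Between the HCC groups 5 of 27 tested genes of the list were higher and 0 lower by limma. At an unadjusted p under 0.05 and with no limit on the fold, 8 were higher and 3 lower. Of 26 tested between ICC and p53f/f HCC, 10 were higher and 4 lower.

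A further list held genes of the cilium and of polycystic disease, which include the partners of Bicc1 and Pkhd1 in cystic disease. Of 26 tested between ICC and p53LKO HCC, 5 were higher and 0 lower by limma, with a median of 0.03. These were 19.2% and 0%, against 12.8% and 15.3% of all genes with 1 probe each. At an unadjusted p under 0.05 and with no limit on the fold, 8 were higher and 7 lower. Pkd2, a cation channel of the cilium, was at 2.29 ± 0.47 in ICC and 1.16 ± 0.17 in HCC (SD, n = 5 each). The cilium genes Bbs4 and Bbs1, both dim, were higher in ICC than in p53LKO HCC by 1.26 and 1.18. Neither was called between ICC and p53f/f HCC, at -0.07 and 0.93. Bbs4 was called lower in p53LKO than in p53f/f HCC, at -1.32. Between the HCC groups, 1 of 26 was higher in p53LKO HCC and 3 were lower, and between ICC and p53f/f HCC 4 were higher and 2 lower. Of 22 tested genes of Notch signalling and other inputs to biliary fate, 3 were higher in ICC and 4 lower than in p53LKO HCC, with a median of 0.32. The ligand Jag1 rose by 2.25 (limma adjusted p = 0.00247, SE 0.44) and the Notch target Heyl by 1.41, while the ligand Dll4 fell by 2.24 and the hepatic factor Foxa3 by 1.70 on the log2 scale. Between the HCC groups 2 of 22 were higher in p53LKO HCC and 0 lower by limma. At an unadjusted p under 0.05 and with no limit on the fold, 4 were higher and 2 lower. Between ICC and p53f/f HCC 4 of 21 were higher and 4 lower.

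Markers of other cells moved with the same comparison. Of 26 hepatocyte genes tested, 10 were lower in ICC and 0 higher by limma (also 0 higher at an unadjusted p under 0.05 and with no limit on the fold), with a median of -0.92. The apolipoprotein Apoa1 fell by 2.76 on the log2 scale. The hepatocyte factor Hnf4a fell from 7.27 ± 0.23 to 5.24 ± 0.63 and Alb from 9.76 ± 0.28 to 7.85 ± 1.18 (SD, n = 5 each). Alb, Apoa1, Ttr, Hnf4a and Cps1 were all well above background on every ICC array. The ICC of mouse 3733 had the lowest Alb of the 15 arrays, at 5.99, and the highest Spp1. Of 14 genes of stellate cells and fibroblasts, 7 were higher in ICC and 0 lower by limma (also 0 lower at an unadjusted p under 0.05 and with no limit on the fold), with a median of 1.42 and with Col1a1 at 6.48 ± 0.44 against 3.85 ± 0.99 (SD, n = 5 each). Their summed level, as log2, was 9.03 to 9.83 in ICC and 6.45 to 8.17 in p53LKO HCC.

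Of 17 genes of macrophages and other leukocytes, 6 were higher and 1 lower in ICC than in p53LKO HCC, with a median of 0.56. Lyz2 rose by 2.99 and Trem2 by 2.25, and Gpnmb, a macrophage gene, rose by 2.24, while Cd4 fell by 2.76 on the log2 scale. The macrophage genes Csf1r, Cd68, Cd14, Adgre1 and Clec4f of the same list were not called, at -0.02, 0.16, -0.42, 0.64 and -0.64. Of 9 endothelial genes, Vwf alone was higher, by 1.46, and 0 were lower by limma. At an unadjusted p under 0.05 and with no limit on the fold, 1 was higher and 1 lower. Of 8 tested pancreatic acinar genes, 2 were higher and 3 lower, with a median of -0.79. Gp2 was at 8.43 ± 0.40 in ICC and -3.44 ± 1.07 in p53LKO HCC (SD, n = 5 each), where it was well above background on 3 of 5 arrays. Prss2 and Ptf1a, defining genes of acinar cells, were well above background on 0 of 15 arrays. In p53LKO against p53f/f HCC, 4 of 26 hepatocyte genes were lower, 2 of 14 stellate cell genes higher, 2 of 9 endothelial genes lower, and 1 of 17 leukocyte genes was higher and 1 lower. The 5 called genes of the acinar list had no common direction, and 1 of 10 was higher and 2 lower between the HCC groups. In ICC against p53f/f HCC, 13 of 26 hepatocyte genes were lower, 9 of 14 stellate cell genes higher, 2 of 9 endothelial genes lower, 5 of 17 leukocyte genes higher and 1 lower, and 1 of 10 acinar genes was higher and 4 lower. The part of these cell types in the levels of the 9 genes was not tested.

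**Figure D4:**
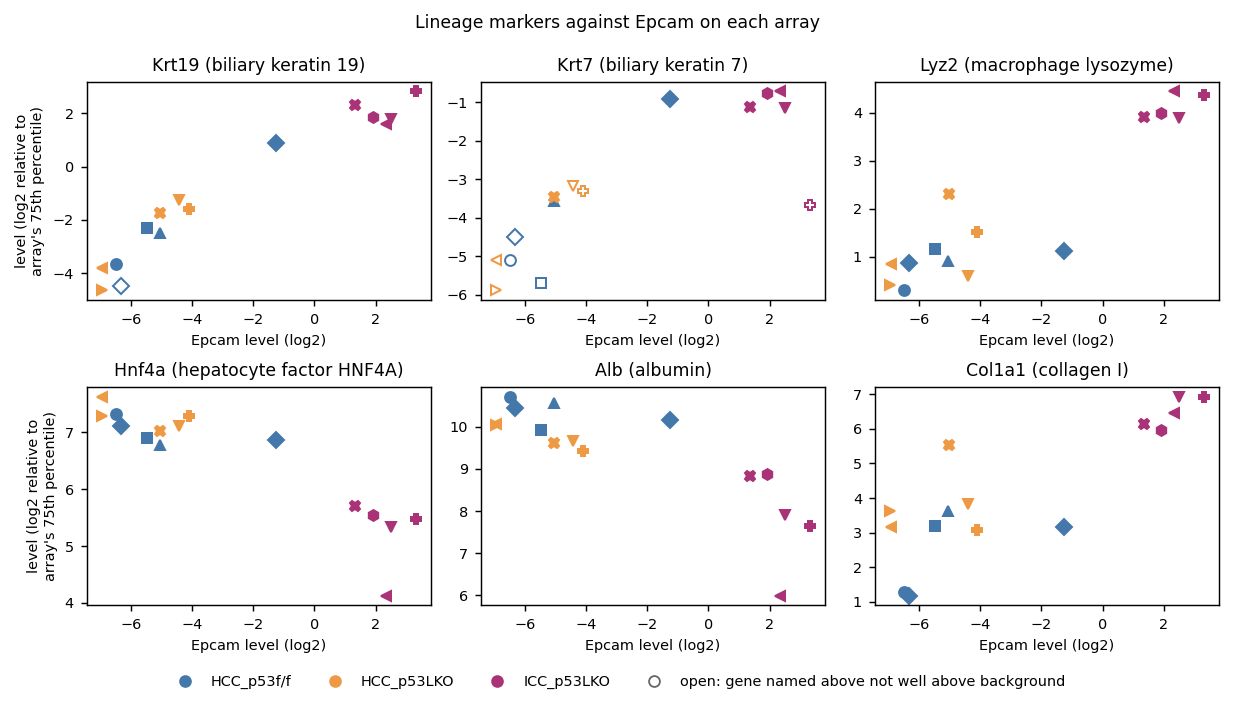
Level of 6 lineage markers (y axis) against the level of Epcam (x axis) on the 15 arrays, both on the log2 scale with the 75th percentile of the array at 0, with colors for the groups and marker shapes for mice as in the plot of the 9 genes. The p53f/f tumor T2 of mouse 3717 lies between the ICC and the other HCC for Epcam and Krt19 and with the HCC for Alb and Hnf4a.

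The genes most alike to each member over the 15 arrays were picked by Pearson's r among 17436 genes, as a description across 3 groups that differ. Epcam was most like Plekhs1 (r = 0.987), Sestd1 (0.983) and Mmp7 (0.978). Spp1 was nearest to Tmem45a (0.961), Mboat1 (0.959) and Lrch1 (0.950). Onecut2 went with Celsr1 (0.929), Prr15l (0.926) and Scube3 (0.912), and Bicc1 with Fads3 (0.962), Sppl3 (0.961) and Mmgt2 (0.956). For Cftr they were Ccdc172, Cmya5 and Trpm1 (0.967 to 0.970), for Onecut1 Ovch2, Ern1 and Galnt11 (0.865 to 0.900), and for Sox9 Dhx29, Sntb2 and Foxk2 (0.857 to 0.883). Prom1 had Rnf24, Abcd2 and Trim24 (0.842 to 0.871), and Pkhd1 had the weakest neighbours, Fgfr3, Zfp418 and Pgc (0.711 to 0.734). Epcam and Onecut1 were not well above background on most of the 15 arrays, so their r rests in part on background readings.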

How the data were processed

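The authors scanned 15 single-dye Agilent mouse arrays and extracted them with Feature Extraction 10.7.3.1, per the labels and file headers. The deposited processed signal is an intensity after background subtraction. The authors also deposited a table of log2 values, which matched these signals after a shift by the 75th percentile and centring of each probe over 10 arrays. It was used only as an alternative for HCC of p53LKO against p53f/f mice, because the ICC columns are centred on other arrays. Probe positions are those of mm9 in the files, promoters those of GRCm38.p6, and the builds were not mixed. CCl4 was given 2 times per week according to the methods and every 3 days according to the labels.

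In R 4.3.3, log2 signals were averaged over unflagged spots and shifted by the 75th percentile of the array's non-control probes. Probes called well above background in 3 or more arrays of either group were tested with limma 3.58.1 (lmFit and eBayes, Benjamini-Hochberg over all probes kept). Exact permutation tests used all 252 splits of 5 against 5 arrays. A bound sets the group well above background against the higher of the probe's own signal and the dimmest signal well above background on each array. The fit was tested on simulated data. Outlying arrays were sought by Dixon's ratio. Figures used matplotlib 3.10.9 in Python 3.11.15.

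The 9 genes, the 9 gene lists (169 genes, 168 on the array) and the tests were chosen with earlier results of these data known. Named are all 9 genes, at most 4 genes per further list with the largest change called between ICC and HCC of p53LKO mice, Krt7, Krt19, Alb and Hnf4a, and the 3 genes most like each member. Some genes that this rule names are not reported here. Named beside the rule are defining markers of other cell types (Ttr, Cps1, Prss2, Ptf1a) and, chosen after their values were seen, Slc5a1, Cldn7, Slc10a2 and macrophage genes that were not called. Mouse numbers pair HCC and ICC of 4 p53LKO mice. Deviations from the group means correlated at -0.14 to 0.07 within these mice and at -0.26 to 0.28 in other pairs. The labels do not say that tumors of a mouse are independent, and p values measure the spread between tumors. The number of arrays and the signal over background limit the precision. Alternatives were other background corrections, scalings, filters, thresholds and tests, slide, row or mouse as a block, within-slide and within-row fits, and leaving out each array.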

Additional observations from a re-analysis of the deposited data

Results flagged for a closer look

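In the p53f/f HCC, the Epcam level of tumor T2 of mouse 3717 was -1.27 (log2, with the 75th percentile of the array at 0) against -6.50 to -5.05 in the other four, with a Dixon ratio of 0.723 above the critical value of 0.71 for 5 arrays. It was the 1 array of 27 sets of 5 tested that stood out in this way. Chance flags about 1 set in 20, so 1 flag among 27 sets is about what chance alone gives. On the other four arrays Epcam was not well above background, so their spread is that of the background.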

How the results depend on the processing

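Over 668 combinations of gene, comparison and alternative, 580 kept direction and side of the thresholds, 22 were no longer called, 29 became called and 37 turned sign, none of the 37 on a called value. Between ICC and HCC of p53LKO mice, Epcam (4.55 with normexp to 8.81 on slide 2) and Spp1 were called in every alternative that tested them, and Epcam was not tested when both groups had to be well above background on all arrays, which left 1 gene higher. The number of lower genes, 1 (Prom1), was 0 under quantile normalization, under a 75th percentile over probes well above background on all arrays, with no filter, with slide or row as a block, in a model of all 15 arrays, with the methods' t-test after adjustment, at an adjusted p under 0.01, on slide 1 and within the lower row, and 0 to 1 when each array was left out. On slide 2 alone 3 genes were higher. With the mouse as replicate block, Bicc1 was at 0.22 and no call changed. Values that turned sign were 0.45 for Onecut2 and 0.47 for Bicc1 under quantile normalization, and 0.35, 0.34 and 0.088 for Onecut2, Bicc1 and Pkhd1 under the percentile of probes above background. With the row as a block or the lower row alone they were -0.11 for Sox9, 0.14 for Onecut2, -0.054 for Cftr and 0.078 for Bicc1, and on slide 1 -0.54 for Cftr and 0.093 for Pkhd1. Leaving out single arrays gave -0.10 to 0.089 for Onecut2 and -0.13 to 0.12 for Bicc1. Between the HCC groups, the number of higher genes, 1 (Bicc1), was 2 with normexp and in the model of all 15 arrays, 3 with the spike-in shift, 0 on either slide and 1 to 2 without single arrays. The number of lower genes, 0, was 1 under the percentile of probes above background, with a filter on all 5 arrays of a group, with the row as a block, in the model of all 15 arrays and within the upper row, and 0 to 1 without single arrays. Signs turned for Spp1 at 0.035 and Pkhd1 at 0.58 with the spike-in shift, for Cftr at 0.062 and Pkhd1 at 0.090 on slide 1, for Prom1 at -0.19 on slide 2, and for Pkhd1 at -0.24 to 0.16 without single arrays. Between ICC and p53f/f HCC, the number of higher genes was 5, not 3, with the spike-in shift, 3 to 4 without single arrays, 4 with normexp, quantile normalization, the percentile of probes above background, no filter, a model of all 15 arrays, no limit on the fold or the mean of both tumors of mouse 3717, and 2 with the slide as a block or an adjusted p under 0.01, and that of lower genes 0, not 1, with normexp and with both groups above background on all arrays. Signs turned for Prom1 at 0.15 and Pkhd1 at 0.14 with the spike-in shift, for Cftr at -0.14 with the slide as a block, and for Cftr at -0.16 to 0.22 and Prom1 at -0.93 to 0.016 when single arrays were left out. The cause of these changes was not tested. The row could not be a block in this comparison, since each group lies in 1 row. The share of called probes that were higher was 49.0% between ICC and HCC of p53LKO mice, 73.5% with the percentile of probes above background (median shift 0.37) and 38.5% with the spike-in shift. It was 18.5% between the HCC groups, with 29.3% under quantile normalization, 32.2% with normexp, 7.35% with the percentile of probes above background (median shift -0.25) and 75.8% with the spike-in shift (0.65). It was 38.2% between ICC and p53f/f HCC and 76.4% with the spike-in shift (0.48). At an unadjusted p under 0.05 and with no limit on the fold, the methods' t-test gave 2 genes higher and 1 lower, 2 and 1, and 4 and 1 in the 3 comparisons, and after Benjamini-Hochberg 2 and 0, 1 and 0, and 4 and 1. Fits with 1 array in a group assume that it varies like the others. Signal over background limits Epcam in HCC and Onecut1 in most tumors of p53LKO mice.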
